A study of Mus musculus with 2 samples.

Results

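The genes described here are ligands, receptors, SMAD proteins, repressors and response genes of the transforming growth factor beta (TGF-beta) and bone morphogenetic protein (BMP) pathways. They were chosen by name from a list of 40 gene symbols, of which 39 had a row among the 14886 protein-coding genes of the deposited count table. Bmp4 was not analysed here. The measurements are ribosome footprints, pieces of mRNA protected by a bound ribosome during nuclease digestion, from cells labelled as mouse lung fibroblasts, with 1 library named IR and 1 named NC. The labels give the cell type of both libraries and no strain, passage, treatment, dose or time, and they do not spell out IR or NC. By its title the study is about lung fibrosis after radiation and how rosmarinic acid affects the step from fibroblast to myofibroblast, and ribosome profiling was meant to find target mRNAs.

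TGF-beta ligands are secreted in a latent form and bind pairs of type II and type I receptor kinases, which phosphorylate SMAD2 and SMAD3. BMP ligands use related receptors that phosphorylate SMAD1, SMAD5 and SMAD9. Both sets of SMADs join SMAD4 and enter the nucleus. SMAD6 and SMAD7 act against the activated receptors, and SKI, SKIL and the TGIF proteins hold the response down at the target genes. In lung fibroblasts the TGF-beta branch is known for driving the myofibroblast state, with its contractile fibres and matrix deposition.

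There is 1 library per condition, so there is no replicate check, no test between the conditions and no p-value. Total depth was 888835 counts in IR and 695446 in NC. After scaling by TMM, the trimmed mean of M values, both libraries had nearly the same effective size, so raw counts can be read side by side. Each fold is IR over NC of scaled counts, with a 95% interval from the exact binomial (Clopper-Pearson) interval of the IR share. These intervals cover counting error only. A ribosome footprint count reflects both the amount of an mRNA and the ribosomes on it, and fewer cells of a type cannot be told apart from less RNA per cell. Of 13 fibroblast markers 12 had a row, none of them at 0, and together they gave 7973 counts in IR against 6439 in NC, with Col1a1, a chain of type I collagen, at 3455 and 3124. Lum, lumican, at 1349 and 222, held most of that gap, and Col3a1, Pdgfra, Thy1 and Fap had fewer counts in IR. Markers of other cell types had counts too. Smooth muscle and pericyte markers (11 of 11 in the table) gave 493 counts in IR against 338 in NC. Synpo2, at 136 and 39, Des, Notch3 and Mcam had more counts in IR. Abcc9, at 129 and 133, Cnn1 and Actg2 had fewer, Myh11, Rgs5 and Kcnj8 were at 0 in IR and Cspg4 at 0 in NC. Endothelial markers (11 of 12) summed to 6961 and 2720, of which Emcn held 6842 and 2618. Pecam1, Kdr, Tek, Vwf and Erg also had more counts in IR, while Tie1, at 21 and 53, had fewer. Cldn5 and Egfl7 were at 0 in IR and Cdh5 and Esam at 0 in NC. Mesothelial markers (6 of 7) summed to 511 and 128, mostly Wt1 at 417 and 77, with Upk3b and Lrrn4 at 0 in NC. Leukocyte markers (7 of 10) summed to 454 and 333, mostly Cd74 at 244 and 169 and Cd3e at 178 and 157. Ptprc, Cd68, Itgam and Lyz2 had 8, 3, 6 and 4 counts in IR and 0 in NC. Epithelial markers (9 of 14) summed to 102 and 33, mostly Abca3 at 73 and 27. Of these markers Epcam and Nkx2-1 were at 0 in IR and Sftpa1, Ager, Foxj1 and Aqp5 at 0 in NC. The part of these other cell types in the folds given here was not tested.

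The promoters of 4 of the genes farthest apart between the libraries are shown, because footprint counts follow mRNA amount as well as translation, and transcription of the mRNA begins there. They are the 250 bases before the RefSeq start in GRCm38.p6, the assembly that mm10 denotes, on the coding strand, 5′ to 3′. Inhbb lies on the minus strand (chr1:119422249-119422498) and Nox4 on the plus strand (chr7:87246399-87246648), and both had more footprints in IR. Acvr2b (chr9:119401928-119402177) and Smad9 (chr3:54755332-54755581), both on the plus strand, had no counts in IR. Capitals mark CAGAC, which holds the AGAC core bound by SMAD3 and SMAD4, or GGCGCC, a GC-rich element of BMP-responsive genes, on either strand.
Inhbb: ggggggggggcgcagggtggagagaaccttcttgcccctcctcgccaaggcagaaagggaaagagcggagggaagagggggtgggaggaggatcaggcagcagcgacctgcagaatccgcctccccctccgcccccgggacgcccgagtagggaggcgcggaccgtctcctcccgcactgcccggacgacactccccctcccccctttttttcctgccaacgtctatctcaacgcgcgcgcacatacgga
Nox4: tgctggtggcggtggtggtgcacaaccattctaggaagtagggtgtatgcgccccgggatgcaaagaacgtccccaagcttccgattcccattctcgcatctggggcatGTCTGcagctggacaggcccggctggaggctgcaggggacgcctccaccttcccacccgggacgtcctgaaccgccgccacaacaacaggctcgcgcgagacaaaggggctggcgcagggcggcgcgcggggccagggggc
Acvr2b: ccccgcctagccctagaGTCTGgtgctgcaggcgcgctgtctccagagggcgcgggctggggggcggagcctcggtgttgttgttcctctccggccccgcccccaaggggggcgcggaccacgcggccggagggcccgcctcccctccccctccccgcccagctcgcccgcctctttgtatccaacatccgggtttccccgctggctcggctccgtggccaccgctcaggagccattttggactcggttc
Smad9: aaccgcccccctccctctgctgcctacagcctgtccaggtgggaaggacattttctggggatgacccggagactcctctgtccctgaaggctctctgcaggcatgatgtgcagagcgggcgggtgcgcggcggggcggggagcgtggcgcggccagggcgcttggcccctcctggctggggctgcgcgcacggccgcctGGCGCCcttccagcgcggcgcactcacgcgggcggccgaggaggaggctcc
A promoter was matched for 28 of the 39 genes. CAGAC was found in 12 of these windows, against 42.2% of the 32851 windows of the RefSeq table. GGCGCC was found in 9, against 9.59% of all windows, and the palindrome GTCTAGAC in 0, against 0.167%. None of these motifs contains another, the windows were not matched for base composition, and the shares were not tested. The RefSeq start of Nox4 lies 553 bp downstream of the start in the count table, so its window falls inside the gene as the count table places it. That of Acvr2b lies 266 bp upstream of the start in the count table. A match is a description of letters and not a bound site.

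With TMM scaling the pathway as a whole had about the same number of footprints in both libraries, and single genes lay on either side. The 39 genes together gave 968 counts in IR against 1000 in NC, a fold of 0.956 (0.875 to 1.05). With total-count scaling the same sum was 1.32-fold lower in IR (1.21 to 1.44), so whether the pathway was level depends on the scaling. Of the 39 genes, 17 had more counts in IR and 22 had fewer, where 7404 and 6934 of all 14886 genes did. The floor used for calls, 20 counts on average over the 2 libraries, was reached by 14 genes. Of these 14, 2 were at least 2-fold higher in IR, Inhbb and Fst, where 11.8% of the 5989 genes at the floor were. Both had under 20 counts in NC (4 and 15) and reached the floor through IR. At least 2-fold lower was 1 of the 14, Tgif1, against 11.9% of all genes. The interval lay wholly above 1 for 2 of the 14 (23.5% of all genes) and wholly below 1 for 2 (23.7%). These shares are close to the background or under it. The median log2 ratio was 0.10 over the 14 genes and -0.02 over all 5989, with an SD of 0.96 and 0.98. With total-count scaling all ratios shift down together, to a median log2 ratio of -0.23 for the 14 genes and -0.34 for all genes at the floor. This gives 1 gene at least 2-fold higher and 3 at least 2-fold lower, where 7.03% and 20.8% of all genes were. Tgfb1, Tgfbr3, Acvr1, Smad3 and Smad5, just above 1 with TMM, then lie just below it, between 0.826 and 0.993.

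**Figure D1:**
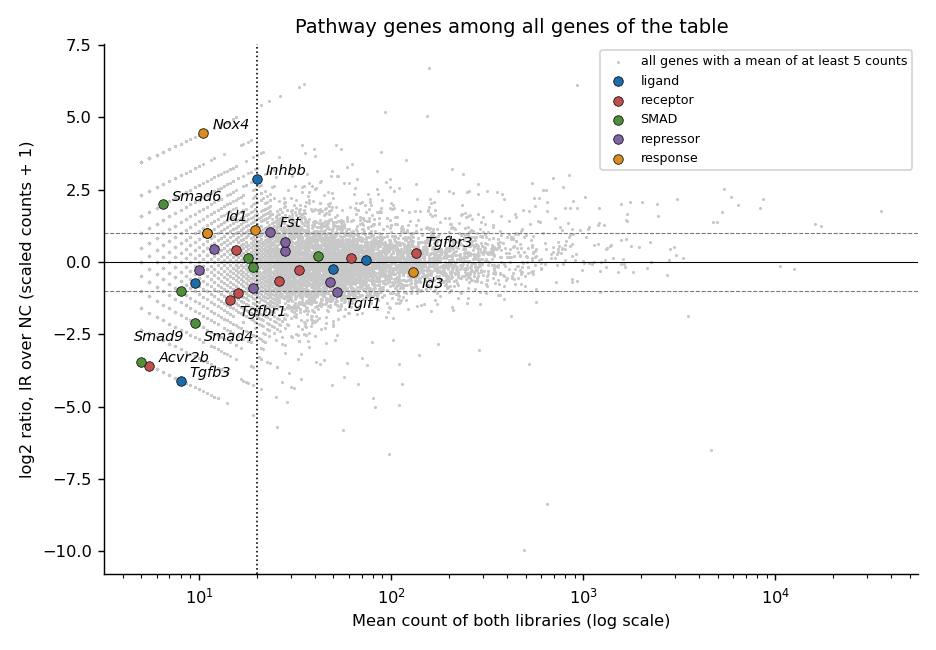
Each grey point is a gene with a mean of 5 counts or more, placed by its mean count of both libraries (log scale) and its log2 ratio of IR over NC, and coloured points are the pathway genes of such counts by role. The dotted line is the floor of 20 counts and the dashed lines mark a log2 ratio of 1 and -1; most pathway genes lie in the body of the cloud, and those far from 0 have low counts, Inhbb sitting exactly on the floor.

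Most of the pathway was measured thinly. The median gene of the 39 had a mean of 15.5 counts, against 12.5 over all genes. Of the 39, 25 lay under the floor, as did 8897 of all 14886 genes. Counts in only 1 of the libraries were seen for 9 genes, 7 at 0 in IR and 2 at 0 in NC. Over all 14886 genes, 1580 were at 0 in IR and 1877 at 0 in NC. Smad2, with a mean of 19.0 counts, and Id1, with 19.5, lay just under the floor. Inhbb, with a mean of 20, and Fst, with 23.5, reached it only through the IR library and so had to differ. Without any floor, 5 of the 39 genes had an interval wholly above 1 and 8 wholly below, where 16.1% and 15.8% of all 14886 genes did. With total-count scaling 2 of the 39, Inhbb and Nox4, had an interval above 1 and 11 had one below, where 9.73% and 24.7% of all genes did. The intervals of Smad6, Fst and Id1 then held 1, and those of Bmpr1a, Smurf2 and Id3 lay below it. Levels are not compared between genes, because counts grow with coding length and coding lengths were not used here.

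**Figure D2:**
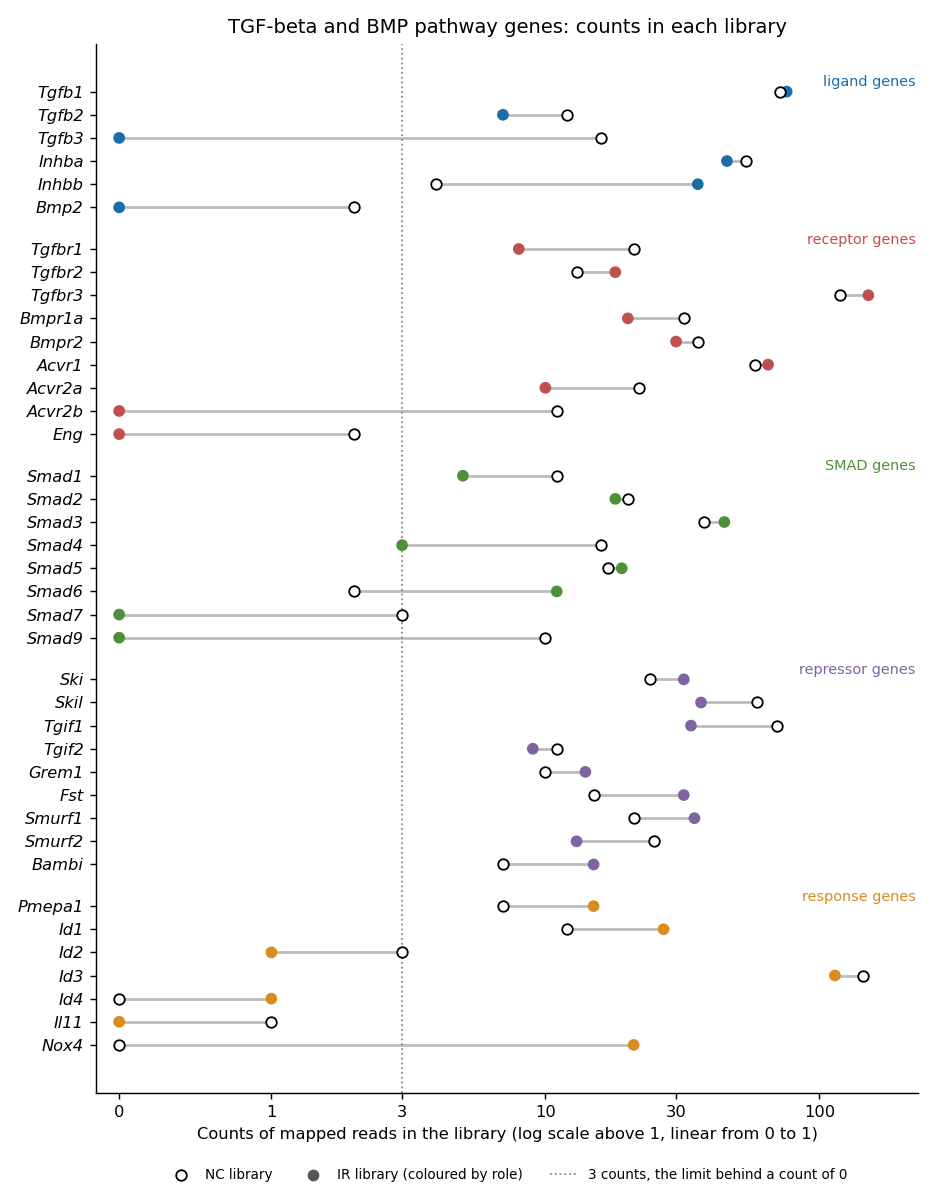
Counts in the NC library (open circles) and in the IR library (coloured by role) for all 39 genes, on an axis that is logarithmic above 1 and linear from 0 to 1. Tgfb3, Acvr2b and Smad9 sit at 0 in IR with 16, 11 and 10 counts in NC, and Nox4 sits at 0 in NC with 21 in IR.

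Among the ligands, the main TGF-beta gene had nearly equal counts in both libraries, while an activin subunit and a TGF-beta isoform were far apart in opposite directions. Tgfb1, which encodes the isoform best known in fibrosis, gave 76 footprint counts in IR against 72 in NC, a fold of 1.04 (0.745 to 1.46). Tgfb2 had 7 and 12 counts, and its interval of 0.192 to 1.59 holds 1. Tgfb3, the third isoform (chr12:86056744-86079041, minus strand), gave 0 footprint counts in IR against 16 in NC. Against the limit of 3 counts that a count of 0 allows per library, Tgfb3 was at least 5.40-fold lower in IR. Such a bound takes the count of the other library as it stands. The binomial interval, which covers the error of both counts, puts the fold of Tgfb3 at up to 0.256. Tgfb3 shares 5150 bp with Ttll5 on the opposite strand, which had 18 and 8 counts, and the strand setting of the counting is not given in the sources used here. The 3 isoforms together gave 83 counts against 100, or 0.820-fold (0.605 to 1.11).

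Activins are dimers of inhibin beta chains that signal through SMAD2 and SMAD3. Inhbb, which encodes the beta B chain, gave 36 footprint counts in IR against 4 in NC, a fold of 8.89 (3.19 to 34.4). Inhba, which encodes the beta A chain, gave 46 counts against 54, or 0.842-fold (0.555 to 1.27). The intervals of Inhbb and Inhba do not overlap. Bmp2, a BMP ligand, had 0 and 2 counts, too few for a fold.

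Of the 9 receptor genes, 3 had an interval below 1 (15.8% of all genes did) and 0 had one above 1 (16.1%). All 3, Tgfbr1, Acvr2a and Acvr2b, lay under the floor of 20 counts, and the intervals of the other receptors held 1. Tgfbr1, the type I kinase for TGF-beta, gave 8 footprint counts in IR against 21 in NC and was 2.66-fold lower (1.13 to 6.94). Its partner Tgfbr2, the type II kinase, gave 18 counts against 13, or 1.37-fold (0.634 to 3.04). Tgfbr1 and Tgfbr2 thus lay on opposite sides of 1, with intervals that overlap. Tgfbr3, betaglycan, a co-receptor that presents ligand, gave 151 counts against 119, or 1.25-fold (0.979 to 1.61).

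The activin type II receptors both had fewer footprints in IR. Acvr2a gave 10 footprint counts in IR against 22 in NC and was 2.23-fold lower (1.01 to 5.27). It shares 446 bp with Orc4, which had 0 and 1 counts. Acvr2b had 0 and 11 counts and was at least 3.71-fold lower, with a binomial interval for the fold of up to 0.394. With Tgfbr2 and the BMP receptor gene Bmpr2 (30 and 36 counts, a fold of 0.823, 0.490 to 1.37), the type II receptors summed to 58 and 82 counts, 1.43-fold lower in IR (1.01 to 2.04). Both margins are thin: with DESeq2 size factors the interval of the sum was 0.998 to 2.01, and 7 of the 39 genes in place of 8 had an interval below 1, Acvr2a being the one lost.

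With TMM scaling the intervals of the BMP-side type I receptors held 1. Bmpr1a gave 20 footprint counts in IR against 32 in NC and was 1.62-fold lower (0.898 to 2.99). Acvr1, which encodes ALK2, gave 65 counts against 58, or 1.11-fold (0.765 to 1.61). The co-receptor gene Eng, endoglin, which is also an endothelial gene, had 0 and 2 counts, while the endothelial markers gave the sums stated above.

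The SMADs of the TGF-beta branch had similar counts in both libraries, while the shared partner Smad4 and the BMP-branch Smad9 were lower in IR. The inhibitory Smad6 was higher, though with total-count scaling its interval held 1. Of the 8 SMAD genes, 2 had an interval below 1 (15.8% of all genes did) and 1 had one above 1 (16.1%). Smad4, Smad6 and Smad9 all lay under the floor of 20 counts. Smad3 gave 45 footprint counts in IR against 38 in NC, a fold of 1.17 (0.743 to 1.85). Smad2 gave 18 counts against 20, or 0.889-fold (0.443 to 1.77). Together they gave 63 counts against 58, or 1.07-fold (0.739 to 1.56), so a 2-fold difference in either direction lies outside the counting interval.

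Smad4, which partners the activated SMADs of both branches, gave 3 footprint counts in IR against 16 in NC and was 5.40-fold lower (1.55 to 28.9). Of the BMP-branch SMADs, Smad9 had 0 and 10 counts and was at least 3.37-fold lower, with a binomial interval for the fold of up to 0.441. Smad1 had 5 and 11 and was 2.23-fold lower (0.713 to 8.18). Smad5 gave 19 counts against 17, or 1.10-fold (0.543 to 2.26). The 3 genes together had 24 and 38 counts and were 1.60-fold lower, with an interval of 0.937 to 2.79 that holds 1. The inhibitory SMADs act as feedback brakes on the receptors. Smad6, which acts mainly on BMP signals, gave 11 counts against 2, or 5.43-fold (1.19 to 50.4), an interval that with total counts begins at 0.939 and holds 1. Smad7 had 0 and 3, too few for a fold.

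Genes with no count in IR and at least 10 in NC numbered 3 of the 39, namely Tgfb3, Acvr2b and Smad9, where 0.86% of all genes met the same limits. The reverse was seen for 1 gene, Nox4, against 1.05%. These limits were chosen after the values were seen, so the counts are a description of the genes and lend no weight to them.

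**Figure D3:**
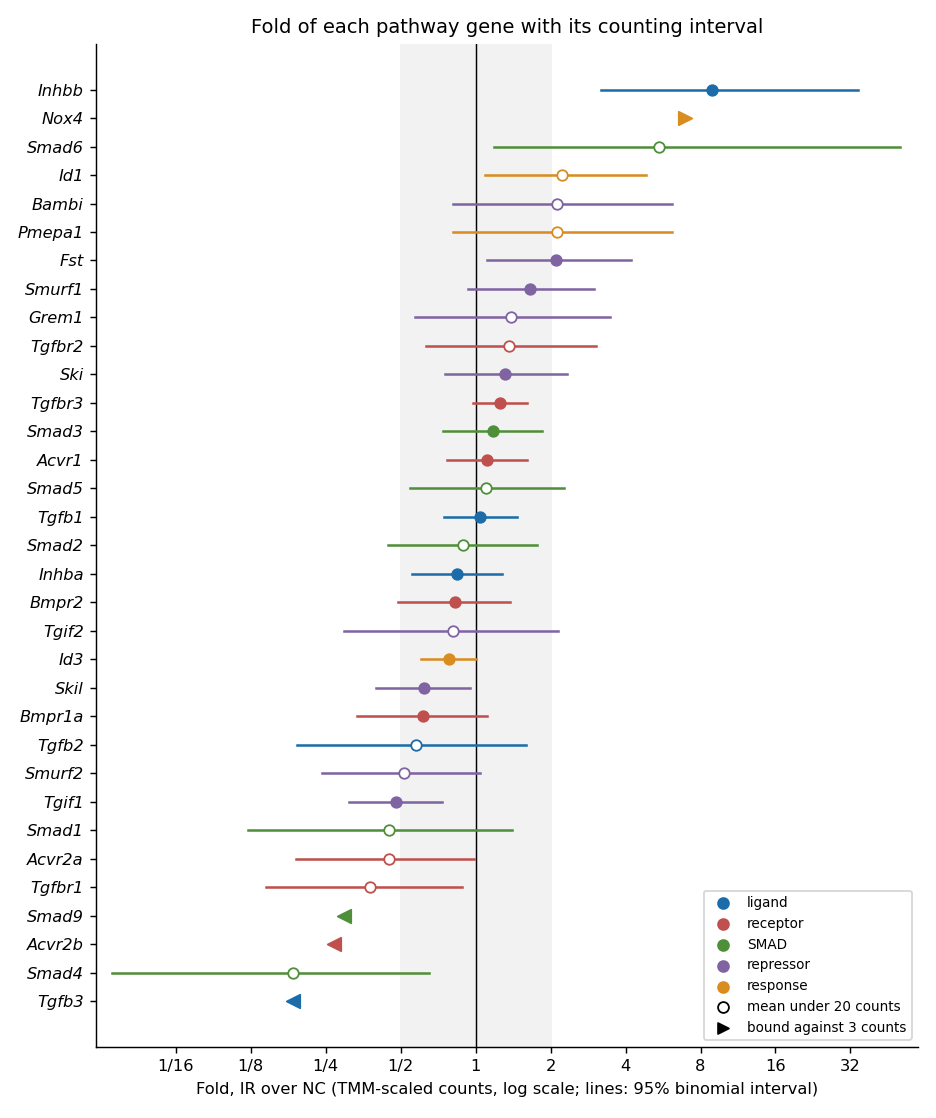
Fold of IR over NC on a log axis for the 33 genes with more than 3 counts in at least 1 library, coloured by role, with lines for the 95% binomial interval and the grey band from 1/2 to 2. Filled circles have a mean of at least 20 counts, open circles fewer, and triangles are bounds against 3 counts; Inhbb and Nox4 lie at the top and Tgfb3 and Smad4 at the bottom.

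Of the 9 repressors, the nuclear factors Tgif1 and Skil were lower in IR beyond counting error, the secreted Fst was higher with TMM, and the other 6 had intervals that hold 1. Over all 14886 genes an interval lay below 1 for 15.8% and above 1 for 16.1%. At the floor, which 5 of the 9 repressors reached, these 3 among them, the shares were 23.7% and 23.5% of all genes. Tgif1, a homeobox protein that represses SMAD2 and SMAD3 targets, gave 34 footprint counts in IR against 70 in NC and was 2.08-fold lower (1.36 to 3.24). Of the 5989 genes at the floor, 10.7% had a lower log2 ratio than Tgif1. Skil, which encodes the SMAD-binding repressor SnoN, had 37 and 59 counts and was 1.61-fold lower (1.05 to 2.50). Its relative Ski gave 32 counts against 24, or 1.32-fold (0.752 to 2.34), so the pair lay on opposite sides of 1 with intervals that overlap. Tgif2 had 9 and 11 counts.

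Fst, follistatin, binds and neutralises activins. It gave 32 footprint counts in IR against 15 in NC, a fold of 2.11 (1.11 to 4.19). Scaled by total counts, Fst had a fold of 1.67 (0.878 to 3.32), which no longer passes 2-fold and holds 1. Grem1, gremlin, a secreted BMP antagonist, gave 14 counts against 10, or 1.38-fold (0.571 to 3.48). Bambi, a decoy receptor without a kinase, gave 15 counts against 7, or 2.12-fold (0.812 to 6.14).

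The ubiquitin ligases that mark SMADs and receptors for destruction lay on opposite sides of 1. Smurf1 gave 35 footprint counts in IR against 21 in NC, a fold of 1.65 (0.932 to 2.98). Smurf2 had 13 and 25 counts and was 1.95-fold lower (0.959 to 4.14). Both intervals hold 1 with TMM.

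The response genes gave no common direction. The Id genes, whose products block basic helix-loop-helix factors, are classical BMP targets. Id3, the best measured, gave 114 footprint counts in IR against 144 in NC, a fold of 0.782 (0.606 to 1.01). Id1 gave 27 counts against 12, or 2.22-fold (1.09 to 4.82). With total counts its interval begins at 0.862 and holds 1. With TMM the intervals of Id1 and Id3 do not overlap. Id2 had 1 and 3 counts and Id4 had 1 and 0. The 4 Id genes together gave 143 counts against 159, or 0.889-fold (0.704 to 1.12).

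The TGF-beta targets among the response genes rested on few reads. Nox4, an oxidase that produces hydrogen peroxide and is induced by TGF-beta in fibroblasts, gave 21 footprint counts in IR against 0 in NC. The IR count has an exact Poisson interval of 13.0 to 32.1, and Nox4 was at least 6.92-fold higher in IR, with a binomial interval for the fold from 5.14. Pmepa1, a TGF-beta-induced membrane protein that restrains the pathway, gave 15 counts against 7, or 2.12-fold (0.812 to 6.14). Il11, a cytokine downstream of TGF-beta in fibroblasts, had 0 and 1 counts.

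Beyond the 39 genes, a further list of 123 superfamily genes was read in the same way, and 96 of them had a row. Most genes listed under latency and activation of TGF-beta had more footprints in IR. Of the 50 genes at the floor, 7 were at least 2-fold higher and 5 at least 2-fold lower, and 17 had an interval above 1 and 9 below. The background is the same as for the 39 genes, 11.8%, 11.9%, 23.5% and 23.7%. The median log2 ratio of the 50 genes was 0.25.

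Latency and activation genes included 11 at the floor, of which 9 had an interval above 1 and 1 below, with a median log2 ratio of 0.79. With total-count scaling 5 of the 11 had an interval above 1, where 13.1% of all genes at the floor did. The median of the 11 was then 0.45, beside -0.34 for all genes at the floor. Genes with high counts were more often higher in IR, so the 8 that averaged at least 100 counts are set against their own background. Of these 8, 7 had an interval above 1, where 38.2% of the 1332 genes with such counts did, and their median log2 ratio was 0.69 against 0.10. Integrins that contain the alpha V chain free TGF-beta from its latent complex. Itgav, that chain, gave 1196 footprint counts in IR against 542 in NC, a fold of 2.18 (1.97 to 2.42). Itgb8, a beta chain that pairs with it, gave 424 counts against 160, or 2.62-fold (2.18 to 3.16). Furin, the protease that cleaves the TGF-beta precursor, had 390 and 126, a fold of 3.06 (2.50 to 3.77). Bgn, biglycan, a proteoglycan that binds TGF-beta, gave 901 counts against 641, or 1.39-fold (1.25 to 1.54). Ltbp4, a latent TGF-beta binding protein, went against the list, with 30 and 66 counts, 2.23-fold lower (1.43 to 3.55).

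Gdf15, a divergent ligand of the superfamily known as a stress-induced cytokine, gave 51 footprint counts in IR against 13 in NC, a fold of 3.88 (2.08 to 7.77). Ctgf, a matricellular TGF-beta target now named Ccn2, gave 674 counts against 211, or 3.16-fold (2.70 to 3.70), while Pdgfb, a growth factor, had 17 and 42 and was 2.50-fold lower (1.39 to 4.69). Fstl1, a follistatin-like glycoprotein, gave 1091 counts against 588, or 1.83-fold (1.66 to 2.03). Of 20 intracellular regulators, 1 had an interval above 1 and 6 below, where 23.5% and 23.7% of all genes at the floor did. Their median log2 ratio was -0.17, beside -0.02 for all genes at the floor. With total-count scaling it was -0.50, beside -0.34 for all genes. Among them Ppm1a, a phosphatase reported to act on SMAD2 and SMAD3, had 33 and 72 counts and was 2.21-fold lower (1.44 to 3.44). Usp11, a deubiquitinase, had 25 and 57 and was 2.31-fold lower (1.42 to 3.86).

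**Figure D4:**
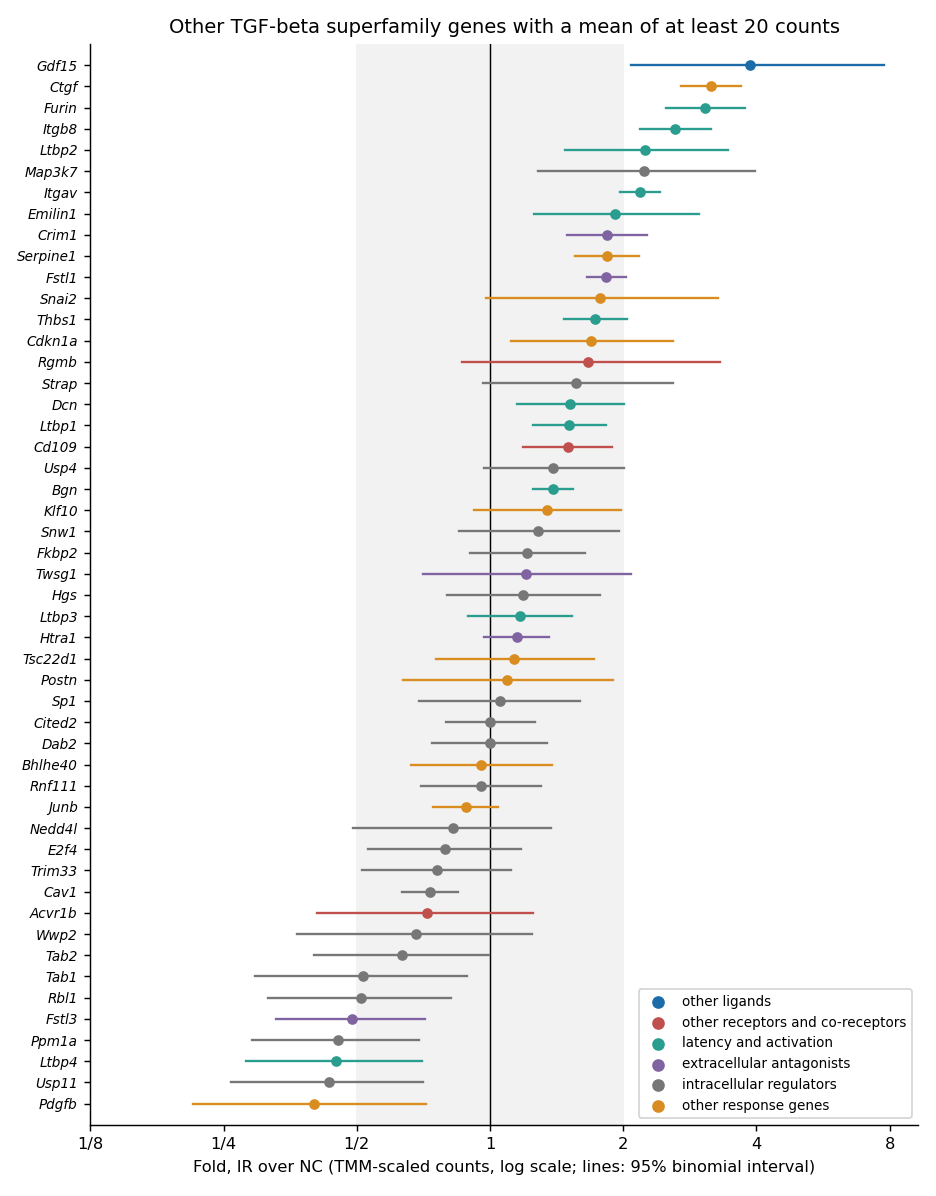
Fold of IR over NC on a log axis for the 50 further superfamily genes that reached the floor of 20 counts, coloured by group, with lines for the 95% binomial interval and the grey band from 1/2 to 2. Latency and activation genes other than Ltbp4 lie above 1, and Gdf15 lies at the top and Pdgfb at the bottom.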

How the data were processed

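The deposited table holds whole-number counts of mapped reads per gene, per the file headers, with symbols and positions on mm10. Per the submitters' processing notes the tools were HTSeq 0.9.1, TopHat2, Bowtie and cutadapt 1.9.3, beside edgeR and DESeq2, with no role stated. Whether counting used strand, which annotation it used and how multi-mapped reads were treated is not given in the sources used here. The 2 columns of log2 CPM were not used.

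Groups were taken from the sample titles. Counts were scaled with TMM factors of 0.890 for IR and 1.12 for NC (edgeR 4.0.16, R 4.3.3), which gives effective library sizes of 791008 and 781455. Folds carry no pseudocount, and log2 ratios add 1 to the scaled counts. A count of 0 was given a limit of 3 counts, 3.79 CPM in IR and 3.84 CPM in NC. No molecular identifiers are mentioned in the labels, so reads may include PCR copies. The fold and interval procedure was tested on simulated Poisson counts. These hold counting error only, as the interval assumes, so the test cannot speak to PCR copies or spread between libraries.

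The genes named are the 39 members and, of the further pathway genes at the floor, the 4 highest and 4 lowest folds and the 4 highest mean counts. The members and lists were chosen with earlier results of these data known. The extra limits of 10 and 100 counts, and the sums over isoforms and receptor types, were added after the values were seen. Promoter sequences are from RefSeq (GRCm38.p6). A planned density per coding length was not computed, as no coding lengths were used. Other scalings, floors, pseudocounts and the removal of overlapping genes were tried. Python 3.11.15, numpy 2.4.6, scipy 1.17.1, pandas 2.3.3, matplotlib 3.10.9 and DESeq2 1.42.0 (size factors only) were used.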

Additional observations from a re-analysis of the deposited data

How the results depend on the processing

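No paired analysis was possible because each condition has 1 library, and no replicate could be left out. Scaling by total counts gave 1 gene at least 2-fold higher, 3 at least 2-fold lower, 1 with an interval above 1 and 4 below, while 7.03%, 20.8%, 13.1% and 39.1% of all genes met the same limits. Of the 30 genes with counts in both libraries it put 10 above 1, where TMM put 15, and each fold stayed within its TMM interval. A floor of 10 counts gave 6, 3, 4 and 4 genes of 26 (14.6%, 15%, 21.9% and 22.4% of all genes), and the genes above 0 in both libraries gave 6, 6, 4 and 5 of 30 (17.6%, 18.9%, 17.6% and 18.1%). A floor of 50 counts gave 0, 1, 0 and 1 genes of 6 (10.4%, 6.75%, 29.3% and 24.9% of all genes). With a floor of 100 counts (2 genes, Tgfbr3 and Id3) all 4 counts were 0 (12.5%, 4.58%, 38.2% and 25.8% of all genes). These floors change which genes are read, and Inhbb and Fst (means of 20 and 23.5 counts) lie under those of 50 and 100. The summed fold of all 39 genes was 0.757 with total counts, outside its TMM interval; that check was added after the values were seen. DESeq2 size factors and the upper quartile left the 4 counts as they were. None of the 14 genes overlaps another, so removing overlapping genes could not change them. The median log2 ratio ranged from -0.23 to 0.14 over all alternatives, so its sign changes with the settings and is not settled. Depth limits most of the pathway: 25 of 39 genes had a mean under 20 counts, as had 8897 of all 14886.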
